A study of Bos taurus with 12 samples.

Results

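Intermediate filaments are the rope-like cytoskeletal polymers that give cells mechanical strength, and their subunits change with cell type. Progenitor and mesenchymal cells build them mainly from vimentin, with nestin as a partner that needs vimentin or desmin to assemble. Differentiated muscle uses desmin, which together with synemin and the cross-linker plectin ties the Z-discs of neighbouring myofibrils to each other, to the membrane and to nuclei. Keratins 8 and 18 form the filament pair of simple epithelia, and alpha-internexin is a filament protein of neurons.

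The genes described here are the 8 of DES, VIM, NES, SYNM, INA, KRT8, KRT18 and PLEC, chosen by name among the 18436 genes of the expression table, together with every m6A peak annotated to them. Each name matched 1 gene, and no other gene of the table overlapped any of the 8. Coordinates are those of the genome build ARS-UCD1.2. The cells were primary myoblasts from the longissimus dorsi muscle of newborn Qinchuan cattle (1 animal is named in the methods). No transgene or deletion is described for them. The GM group was proliferating myoblasts at 80% confluence in growth medium with 20% fetal bovine serum, and the DM group was cultures kept for 4 days in differentiation medium with 2% horse serum. Each group had 3 input libraries, which gave RNA-seq expression, and 3 m6A immunoprecipitation (IP) libraries. The sources do not say that the 3 replicates came from separate animals, so p-values measure only the spread between these samples. Medium, serum, confluence and differentiation differ together between GM and DM and cannot be told apart.

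Expression is given as FPKM, a level per length of exon and per mapped read, so genes can be compared with each other. FPKM summed over all genes to between 415740 and 434458 in the GM libraries and between 386436 and 390827 in the DM libraries, and the deposited tables give no read counts behind these values. The change of each gene was tested with limma on log2(FPKM + 1) across the 12302 genes whose mean reached 0.5 FPKM, a scale that understates the change of low genes. A gene was called at an unadjusted p under 0.05 with a fold change over 1.5. Rescaling every library to the same total (TPM) moved the median change over all tested genes from -0.05 to 0.06 (log2) and the share of called genes that were higher in DM from 41.3% to 55.1%. TPM values are larger numbers to which the same 1 was added, so this shift is not one of scaling alone. With size factors (a median ratio per library) the median change was 0.0007 and the share 48.6%.

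Marker genes followed the labels in part, with mesenchymal messages beside them. The satellite cell and myoblast genes PAX7, MYF5 and MYOD1 were called lower in DM, 3 of 3. Of 6 myotube genes, 3 were called higher (CKM, MYH3 and TNNT3), 1 was called lower (ACTA1) and MYOG and MYMK were not called. MYOG was higher in DM under the 1.5-fold limit (197 to 243 FPKM, log2 fold change 0.305, limma adjusted p = 0.0046). MYMK had a log2 fold change of 0.21 (limma adjusted p = 0.083). The 6 myotube genes together already summed to 609 to 670 FPKM in GM, against 1059 to 1103 FPKM in DM. Fibroblast markers (PDGFRA, DCN, LUM and COL1A1) summed to 7769 to 7992 FPKM in GM and 8564 to 8819 FPKM in DM, and none of the 4 was called. COL1A1 made up most of this sum, with means of 6791 FPKM in GM and 7420 FPKM in DM. DCN (531 to 667 FPKM, log2 fold change 0.33, limma adjusted p = 0.0032) and PDGFRA (36.9 to 44.3 FPKM, 0.26, limma adjusted p = 0.0053) were higher in DM under the 1.5-fold limit. Smooth muscle markers summed to 2218 to 2690 FPKM in GM and 1779 to 2051 FPKM in DM, with neither of the 2 tested called. Most of that sum was ACTA2, with means of 2241 FPKM in GM and 1713 FPKM in DM. ACTA2 (log2 fold change -0.39, limma adjusted p = 0.0096) and CNN1 (-0.30, limma adjusted p = 0.0065) were both lower in DM under the 1.5-fold limit. The defining myosin MYH11 was at 0.282 FPKM in GM and 0.529 FPKM in DM. Of the epithelial list, 3 of 5 genes were in the table, EPCAM had a mean of 0.00940 FPKM in GM and was listed at 0 in all DM libraries, and CDH1 was called higher (8.86 to 15.4 FPKM). CLDN4 went the other way, untested, from 0.197, 0.240 and 0.183 FPKM in GM to 0.0137, 0 and 0 FPKM in DM. Endothelial and glial or neuronal markers summed to at most 0.340 FPKM in any library and none was tested, and the 1 adipocyte and 1 immune marker that were tested were not called. Vimentin and desmin are also made by fibroblasts and smooth muscle cells respectively. In bulk libraries a smaller number of cells of a type and less RNA per cell cannot be told apart, and the part of these cell types in the changes below was not tested.

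The filament message held less vimentin and nestin in DM, with desmin nearly level. NES fell by 1.09 on the log2 scale and VIM fell by 0.73, while DES, abundant in both groups, stayed within 1.5-fold. INA and PLEC were higher in DM with an adjusted p under 0.05 but under the 1.5-fold limit on the log2(FPKM + 1) scale (the plain FPKM ratio was 1.67 for INA and 1.25 for PLEC). SYNM did not reach that adjusted p, and KRT8 and KRT18 lay too low to be tested. Both called genes were lower in DM, 2 of the 6 tested, where 11.9% of all tested genes were called, 6.97% were called lower and 4.9% were called higher.

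VIM (ENSBTAG00000018463, chr13:31653816-31661745, plus strand), the type III filament protein of mesenchymal cells and myoblasts, was the most abundant of the 8 genes in every library. Its level was 2729, 2667 and 2879 FPKM in the 3 GM libraries and 1586, 1780 and 1622 FPKM in the 3 DM libraries. The groups did not overlap, and every DM library lay far below the lowest GM library. Means were 2758 ± 109 FPKM in GM and 1663 ± 103 FPKM in DM (SD, n = 3 per group), so that GM was 1.66 times DM. The log2 fold change was -0.73 ± 0.07 (SE, limma, Benjamini-Hochberg adjusted p = 6e-05), with a 95% interval from -0.88 to -0.58. Among all 18436 genes VIM ranked 5 in GM and 14 in DM, and of the 12302 tested genes 590 had a lower log2 fold change.

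NES (ENSBTAG00000015794, chr3:14159893-14168905, plus strand) encodes nestin, a long filament protein of dividing progenitors that is used as a marker of neural and muscle precursors. GM libraries had 325.5, 323.9 and 295.2 FPKM, and DM libraries 149.6, 143.3 and 148.0 FPKM. The highest DM value lay well under the lowest GM value. GM was 2.14 times DM on the means (315 ± 17.1 and 147 ± 3.26 FPKM, SD, n = 3), and the log2 fold change was -1.09 ± 0.05 (SE, limma, Benjamini-Hochberg adjusted p = 2.5e-06, 95% interval -1.22 to -0.97). NES had the largest change of the 6 tested filament genes, with 229 tested genes below it.

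DES (ENSBTAG00000005353, chr2:107351796-107358964, plus strand), the muscle filament protein desmin, was already abundant before differentiation. It stood at 445.7, 450.1 and 464.5 FPKM in GM and at 491.7, 483.6 and 490.1 FPKM in DM. The 3 DM values lay above the 3 GM values, but by a small margin. The ratio of the means was 1.08, and the log2 fold change of 0.11 ± 0.05 missed the threshold after adjustment (SE, limma, Benjamini-Hochberg adjusted p = 0.092, 95% interval 0.0024 to 0.21). With TPM it was 0.23 (limma adjusted p = 0.0032) and with size factors 0.17 (limma adjusted p = 0.026), so the adjusted call for DES depends on the scaling while its size remains under 1.5-fold. DES ranked 145 of 18436 genes in GM and 115 in DM.

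**Figure D1:**
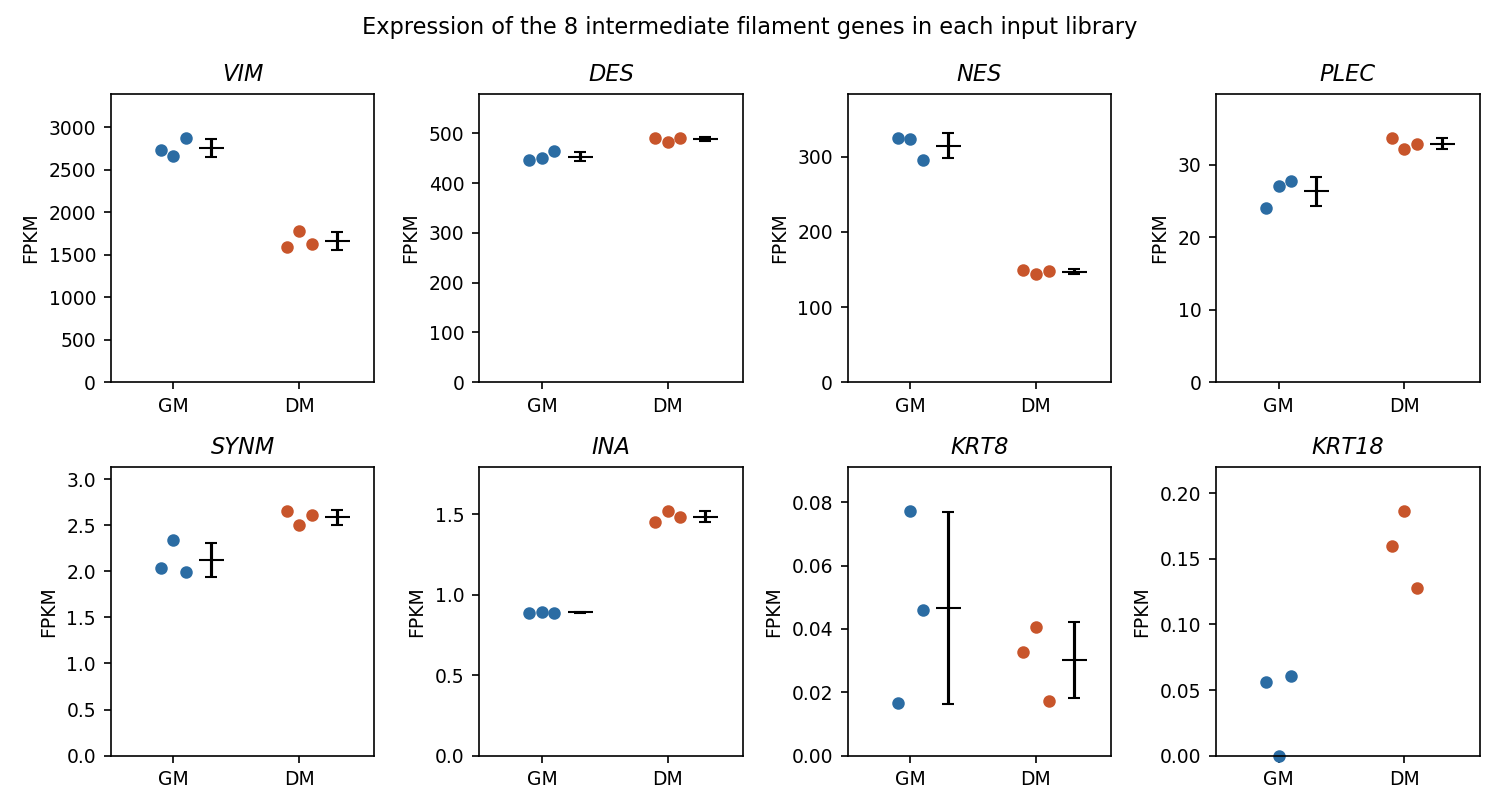
FPKM of each filament gene (vertical axis, linear from 0, a separate scale per gene) in the 3 GM and 3 DM input libraries (points), with black bars for the mean ± SD of 3 libraries, left out for KRT18 because 1 of its values is 0. VIM and NES drop between GM and DM, DES moves from 453 to 489 FPKM on the means, and KRT8 and KRT18 stay below 0.2 FPKM.

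Because FPKM is per length, the levels can be set side by side. VIM, DES and NES made up nearly all of the message of the 7 filament subunit genes (PLEC is a linker and was left out of this sum). The sum was 3503, 3444 and 3642 FPKM in GM and 2232, 2411 and 2264 FPKM in DM, or 0.833 ± 0.0051% and 0.592 ± 0.021% of all FPKM in the library (SD, n = 3). Of the difference in means, VIM contributed -1095 FPKM, NES -168 FPKM and DES 35.1 FPKM. VIM remained the main subunit message in both groups, with 78.1 ± 0.84% of the sum in GM and 72.2 ± 1.5% in DM. The DES share was 12.72, 13.07 and 12.75% in GM and 22.03, 20.06 and 21.65% in DM, without overlap. The NES share was 8.93 ± 0.72% in GM and 6.40 ± 0.40% in DM.

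The DES to VIM ratio was 0.163, 0.169 and 0.161 in GM and 0.310, 0.272 and 0.302 in DM, with no overlap. On the log2 scale it was 0.84 higher in DM (two-sided exact permutation test, p = 0.1, the smallest that 3 against 3 libraries can give). NES relative to DES went from 0.695 ± 0.052 to 0.301 ± 0.0041 (SD, n = 3), and NES relative to VIM from 0.114 ± 0.010 to 0.0887 ± 0.0072. These ratios do not depend on how the libraries are scaled.

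**Figure D2:**
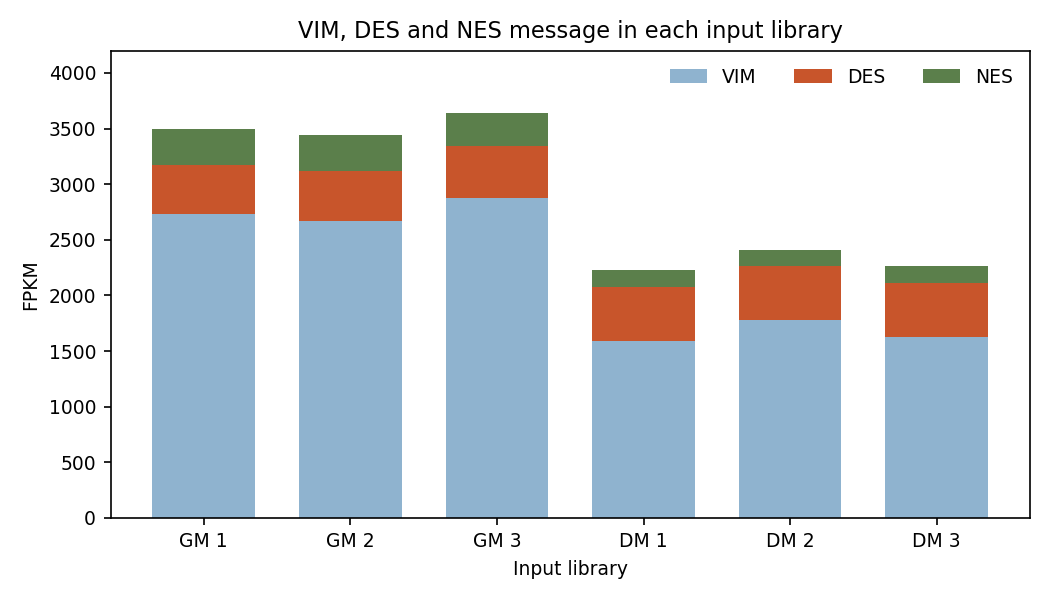
Stacked FPKM of VIM, DES and NES (vertical axis, linear from 0) in each of the 6 input libraries. The GM bars reach about the 3444 to 3642 FPKM of the subunit sum and the DM bars 2232 to 2411 FPKM, while the DES segment keeps nearly the same height.

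Synemin, encoded by SYNM (ENSBTAG00000011752, chr21:7581549-7606637, minus strand), is a large subunit that joins desmin or vimentin filaments to the membrane. Its level was low, at 2.04, 2.34 and 1.99 FPKM in GM and 2.65, 2.50 and 2.60 FPKM in DM. Every DM library lay above every GM library. The log2 fold change was 0.20 ± 0.07 and did not pass after adjustment (SE, limma, Benjamini-Hochberg adjusted p = 0.055, 95% interval 0.03 to 0.37), whereas it passed with size factors (limma adjusted p = 0.023) and with TPM (limma adjusted p = 0.02).

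INA (ENSBTAG00000002717, chr26:23887978-23900120, plus strand), alpha-internexin, was measured at 0.888, 0.895 and 0.885 FPKM in GM and at 1.45, 1.52 and 1.48 FPKM in DM. The 2 groups were well apart and each varied little. On FPKM the ratio of means was 1.67, but on the log2(FPKM + 1) scale the difference was 0.39 ± 0.07, under the 1.5-fold limit (SE, limma, Benjamini-Hochberg adjusted p = 0.0024, 95% interval 0.23 to 0.55). INA was therefore called with a pseudocount of 0.1 (0.68, limma adjusted p = 0.0028) and with TPM (0.64, limma adjusted p = 0.0013) and not otherwise. The same 1 was added to TPM values, which are larger numbers (2.10 in GM and 3.82 in DM), so it weighs less there. With size factors the change was 0.43.

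PLEC (ENSBTAG00000011922, chr14:839972-896647, plus strand) encodes plectin, the giant linker between filaments and Z-discs, membrane junctions, nuclei and mitochondria, and 10 transcripts are listed for it. GM libraries had 24.1, 27.1 and 27.8 FPKM and DM libraries 33.8, 32.2 and 32.9 FPKM. All DM values exceeded the GM values. The log2 fold change was 0.31 ± 0.06 (SE, limma, Benjamini-Hochberg adjusted p = 0.0045, 95% interval 0.17 to 0.46). For each 100 FPKM of filament subunit message there were 0.746 ± 0.051 FPKM of PLEC in GM and 1.43 ± 0.091 FPKM in DM (SD, n = 3).

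The keratin pair was close to the floor of the table. KRT8 (ENSBTAG00000000836, chr5:27039437-27047690, plus strand) was listed at 0.0166, 0.0772 and 0.0460 FPKM in GM and at 0.0328, 0.0406 and 0.0173 FPKM in DM, and the groups overlapped. KRT18 (ENSBTAG00000001517, chr5:26998530-27002595, minus strand) was listed at 0.0565, 0 and 0.0608 FPKM in GM and at 0.160, 0.186 and 0.128 FPKM in DM, all 3 DM values above the GM values. Neither was tested, and their ratio was not formed because of the value of 0.

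Across the 6 tested genes the libraries of the groups did not overlap in any, which held for 54.1% of all tested genes (21.1% with DM higher and 33.0% with DM lower). DM was the higher group in 4 of the 6 and the lower in 2. An adjusted p under 0.05 was reached by 4 of the 6, 2 of them higher and 2 lower in DM, against 42.8% of all tested genes (16.1% higher and 26.7% lower). The median log2 fold change was 0.15 over the 6 and -0.05 over all tested genes.

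**Figure D3:**
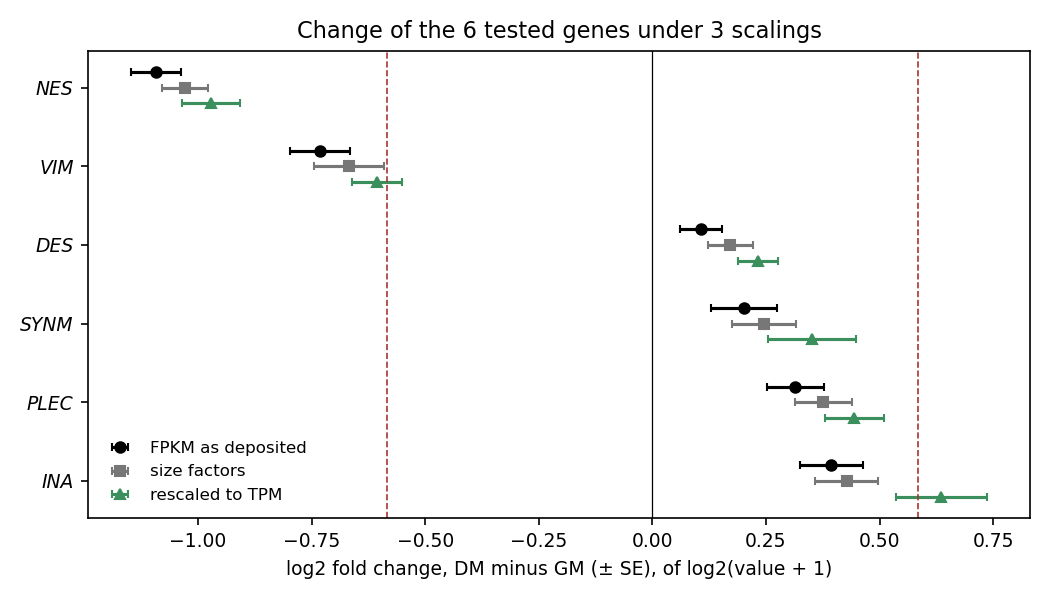
Log2 fold change of DM over GM with its SE (horizontal axis, limma on log2(value + 1)) for the 6 tested genes, from FPKM as deposited, after size factors and after rescaling to TPM. Dashed lines mark a 1.5-fold change. NES and VIM lie beyond the left line under all 3 scalings, and INA passes the right line with TPM (0.64).

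Genes whose profile over the 6 libraries was most like that of VIM, by Euclidean distance of centred log2(FPKM + 1), were GLIPR2 (distance 0.0657), PRELP (0.0671) and TAGLN2 (0.0738, 575 to 348 FPKM). Those nearest to NES were HMGN1 (0.0780, 148 to 69.2 FPKM), LIPG (0.0851) and ENSBTAG00000052346 (0.111).

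Other genes of the filament system were read from lists, whose counts stand beside 11.9% called (4.9% higher and 6.97% lower) and 42.8% with an adjusted p under 0.05 (16.1% higher and 26.7% lower) of all tested genes, with a median log2 fold change of -0.05. Of 22 further cytoplasmic filament genes, 12 were in the table and 6 were tested, none of which was called (median log2 fold change -0.21). An adjusted p under 0.05 was reached by 1 higher and 2 lower in DM. The most abundant was SYNC, syncoilin, a muscle filament protein that binds the dystrophin complex, at 40.9 ± 1.53 FPKM in GM and 57.9 ± 3.03 FPKM in DM (SD, n = 3, log2 fold change 0.49, limma adjusted p = 0.00023). The 2 lower were BFSP1 (2.64 to 2.01 FPKM, -0.27, limma adjusted p = 0.022) and the neurofilament gene NEFH (0.943 to 0.440 FPKM, -0.43, limma adjusted p = 0.0027), the latter named after its values were seen. NEFH lay under the 1.5-fold limit only on the log2(FPKM + 1) scale, since its plain FPKM means differed by more than 1.5-fold. KRT80 and BFSP2 had means between 1.54 and 3.23 FPKM in both groups.

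Of the 3 lamins, which line the nucleus, 2 were called, both lower in DM (median log2 fold change -0.99). B-type lamins LMNB1 and LMNB2 fell, from 19.7 to 3.76 FPKM (log2 fold change -2.12, limma adjusted p = 2.6e-07) and from 13.9 to 6.50 FPKM (-0.99, adjusted p = 1.9e-05). LMNA stood at 174 ± 5.21 FPKM in GM and 179 ± 1.75 FPKM in DM (SD, n = 3, limma adjusted p = 0.49).

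Among 10 plakins and desmosome linkers, 6 were tested and 2 were called, both higher in DM (median log2 fold change 0.15), and 3 were higher and 1 lower with an adjusted p under 0.05. Periplakin, PPL, went from 2.39 to 5.29 FPKM (log2 fold change 0.89, limma adjusted p = 1.2e-05) and MACF1, a plakin of actin and microtubules, from 34.0 to 53.3 FPKM (0.63, adjusted p = 0.00052). DST, another plakin, went from 31.5 to 25.4 FPKM (limma adjusted p = 0.0052), and JUP, plakoglobin, from 14.3 to 16.3 FPKM (limma adjusted p = 0.049), neither called.

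Of 9 filament chaperones and turnover genes, 8 were tested and 1 was called, the small heat shock protein gene HSPB8 (118 to 193 FPKM, log2 fold change 0.70, limma adjusted p = 4.1e-05). This count is near the share of all tested genes, the median log2 fold change was -0.07, and 3 were higher and none lower with an adjusted p under 0.05. CRYAB, a chaperone of desmin, was at 121 ± 7.72 and 114 ± 5.63 FPKM and HSPB1 at 274 ± 15.1 and 262 ± 20.6 FPKM (SD, n = 3), neither called. CAPN2, a calcium-dependent protease, went from 129 to 149 FPKM (limma adjusted p = 0.006) and was not called.

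All 9 filament kinases were tested, and 3 were called, all lower (median log2 fold change -0.16), while 1 was higher and 4 were lower with an adjusted p under 0.05. The called genes are the mitotic kinases that phosphorylate vimentin in dividing cells, PLK1 (10.5 to 1.58 FPKM, log2 fold change -2.16, limma adjusted p = 3.7e-07), CDK1 (5.14 to 1.01 FPKM, -1.61, adjusted p = 1.3e-05) and AURKB (8.96 to 2.58 FPKM, -1.48, adjusted p = 3.4e-06). ROCK2 was at 53.8 ± 4.69 and 56.5 ± 1.58 FPKM (SD, n = 3, limma adjusted p = 0.43).

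Membrane and Z-disc anchors gave 2 called genes of 6 tested, both higher in DM, but as many were lower as higher with an adjusted p under 0.05 (2 and 2, median log2 fold change -0.03). DTNA, alpha-dystrobrevin, which binds synemin, went from 1.17 to 4.35 FPKM (log2 fold change 1.30, limma adjusted p = 2.9e-06), and NEB, the thin filament protein nebulin, from 19.7 to 41.3 FPKM (1.03, adjusted p = 3.7e-05). The 2 lower were FLNC, filamin C (97.2 to 78.6 FPKM, -0.30, limma adjusted p = 0.0066), and UTRN, the dystrophin relative utrophin (31.8 to 22.7 FPKM, -0.47, limma adjusted p = 0.001), neither called and the latter named after its values were seen. DAG1, dystroglycan, was at 31.4 and 31.5 FPKM.

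The m6A data consist of 1 peak list for GM and 1 for DM, which the authors made from the libraries of a group pooled together. Fold enrichment is their ratio of IP over input reads in a peak, given once per group, so no replicate error and no test attach to it. The filament genes had 21 of the 19739 GM peaks, in 6 genes, and 16 of the 20790 DM peaks, in 5 genes. In GM, 6 of their peaks were annotated to a 5′UTR, 10 to an exon and 5 to a 3′UTR, and in DM 4, 7 and 5. Each label stands for a whole peak, also for long ones such as the GM peak of NES (3 blocks, 5036 exon bases, labelled 3′UTR).

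VIM and KRT8 had no peak in either list, and no peak of any other gene fell within their spans. Of the 55 genes whose mean reached 1000 FPKM, as that of VIM did, 24 (43.6%) had no peak in either list, against 19.0% of all tested genes. Among the 6134 genes with a mean under 0.5 FPKM, where KRT8 lay, 60.4% had none. KRT18 had 1 GM peak of 210 exon bases in 2 blocks, labelled 3′UTR as a whole (chr5:26998530-26999032, fold enrichment 9.8). It had none in DM, and the gene was listed below 0.1 FPKM in GM. The false discovery rate of this GM peak was only a little under 0.05 (log10 of -1.4).

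DES carried a single peak in each list, at the very 3′ end of the gene. The GM peak covered chr2:107358665-107358964 with a fold enrichment of 4.41, and the DM peak chr2:107358606-107358964 with 4.78. The DM peak held the whole GM peak, and the log2 ratio was 0.12.

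NES had the longest single peak of the filament genes in GM, running up to the 3′ end of the gene. In GM the peak spanned chr3:14161850-14168905 with 5036 exon bases at a fold enrichment of 7.93, and in DM chr3:14163990-14168905 with 4916 exon bases at 10.3. Only 21 GM peaks and 44 DM peaks of all genes, NES included, were at least as long, where the median peak had 352 and 421 exon bases. Nearly all bases were shared, 97.6% of the GM peak, and the log2 ratio of 0.38 lay under the 1.5-fold limit. In DM a second peak of 61 exon bases near the gene start had a fold enrichment of 1.16, in the lowest 1% of the list (percentile 0.741). The log10 of its false discovery rate was -1.56. The NES message was lower in DM while the enrichment of its long peak was higher, by 1.30 times, and a link between them was not tested.

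SYNM was enriched at its start and along its body. The main peak joined 4 exon blocks (chr21:7583078-7606097 in GM and chr21:7583168-7606097 in DM), with a fold enrichment of 9.07 over 3209 exon bases in GM and 7.23 over 3119 in DM. At the 5′UTR the fold enrichment was 5.17 in GM (chr21:7606217-7606637) and 9.58 in DM (chr21:7606307-7606637), a ratio of 1.85 and the single pair of the filament genes that was higher in DM by more than 1.5-fold. A pair in the last exon went from 2.60 to 1.67, but its peaks touched in 1 base only, so that value compares different stretches of RNA. A further GM peak of 61 bases (fold enrichment 1.45) had a false discovery rate over 0.05 and no counterpart in DM.

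INA showed the largest difference in enrichment among the filament genes. Its 3′UTR peak had a fold enrichment of 8.71 in GM over 329 bases (chr26:23899792-23900120) and 1.88 in DM over 90 bases (chr26:23899822-23899911), a log2 ratio of -2.21. The DM peak covered 27.4% of the GM peak, so the ratio compares stretches of unlike length. In the study's own comparison a nearly identical 3′UTR stretch of INA was also lower in m6A in DM, but by a smaller amount. The study screened peaks common to both groups, whereas the ratio here divides the values of separately listed peaks. The study also counts INA among its differentially expressed genes, higher in DM. A GM peak in exon 1 of 3 (2.27) had no DM counterpart, and a DM peak elsewhere in the 3′UTR (2.48) had no GM counterpart. The log10 of the false discovery rate was -1.39 for the exon 1 peak, only a little under 0.05, and -2.67 for the DM peak. INA had an expression of 0.889 FPKM in GM and 1.48 FPKM in DM, and the number of reads behind these peaks is unknown.

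PLEC held 12 GM peaks and 8 DM peaks. Counting PLEC itself, only 5 of 10601 genes had as many in GM and 45 of 11800 in DM. Its highest enrichment lay over the long exons toward the end of the gene. There the GM list had 2 peaks, chr14:884080-890263 (4947 exon bases, fold enrichment 7.28) and chr14:890323-891941 (1619 bases, 3.12), which in DM formed 1 peak, chr14:882971-891971 (6894 exon bases, 6.14). The 3′UTR peak went from 5.50 (chr14:895028-896647) to 4.47 (chr14:895088-896647).

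At the 5′ side of PLEC, where its transcripts begin at different first exons, the peak at chr14:862333-862543 had the same limits in both lists, with a fold enrichment of 2.94 in GM and 3.89 in DM. Its neighbours at the other 5′UTR pairs went from 2.26 to 1.78 and from 2.02 to 1.62. Farther in, the GM peaks chr14:869720-869780 (4.36) and chr14:870140-870380 (3.70) had no DM counterpart. Their false discovery rates had a log10 of -1.42, only a little under 0.05, and -2.66. The last exon further held weak peaks between 1.28 and 1.56 in both lists. Over the gene, peaks covered 10203 exon bases in GM and 10618 in DM, of which 9601 were shared, and the length-weighted mean fold enrichment was 5.33 and 5.00.

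**Figure D4:**
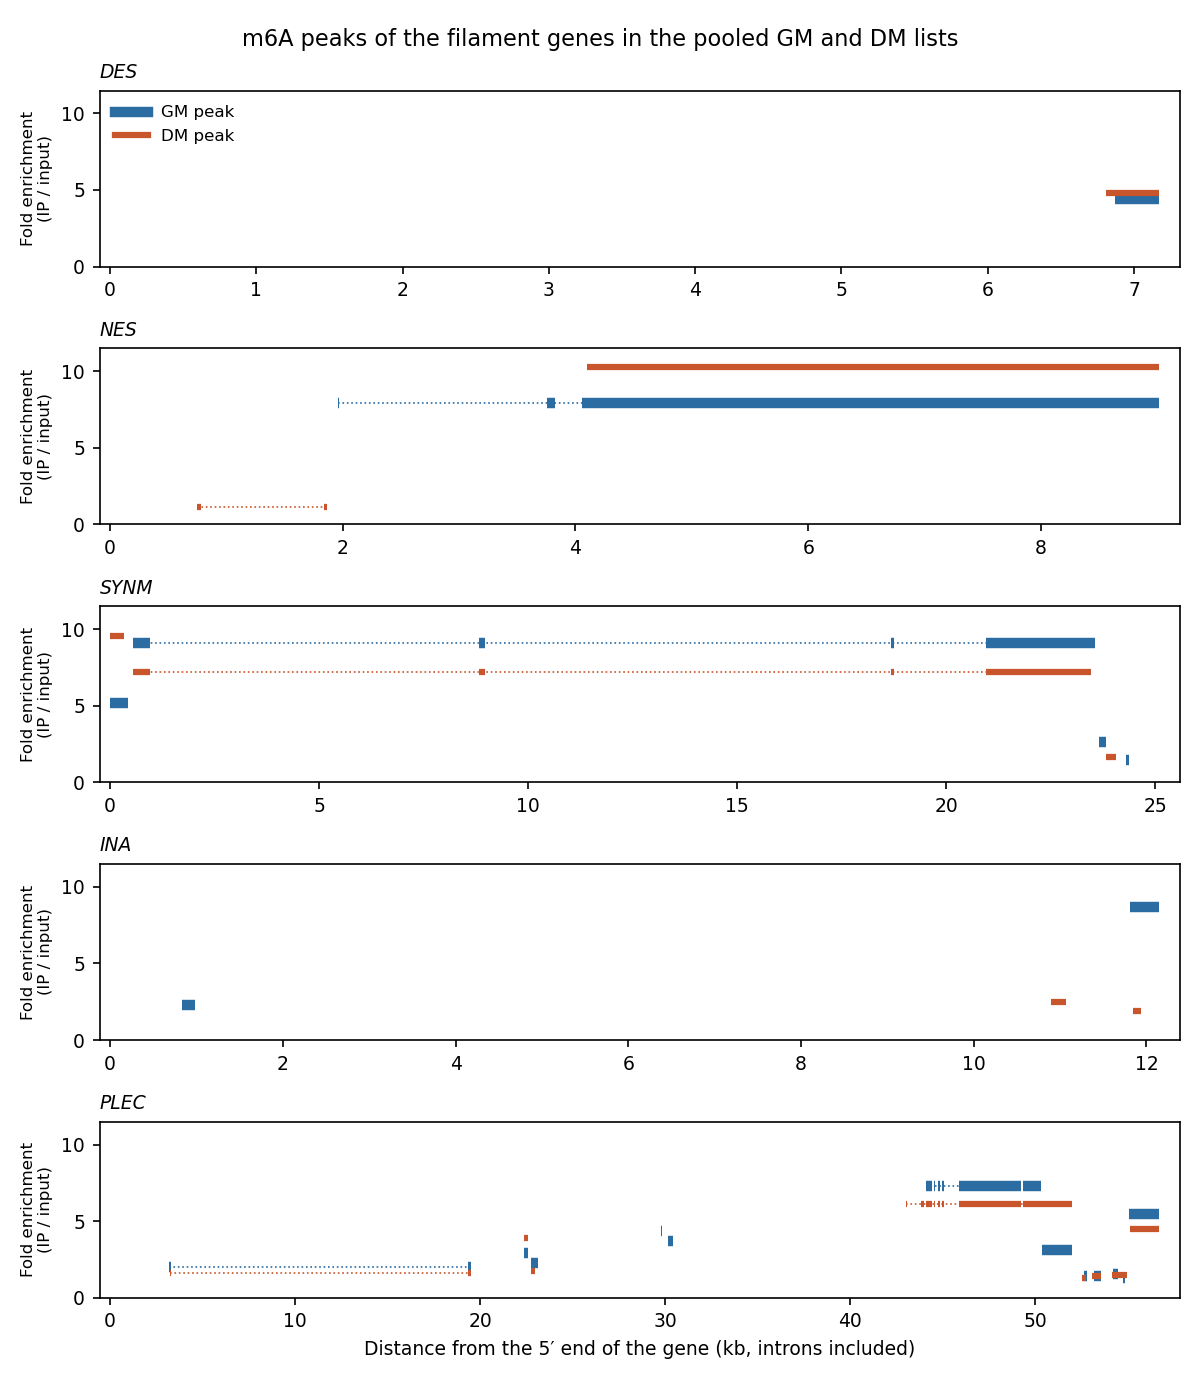
m6A peaks of DES, NES, SYNM, INA and PLEC placed by distance from the 5′ end of the gene (horizontal axis, kb, introns included) and by fold enrichment of IP over input (vertical axis, linear from 0). Thick bars are exon blocks of GM (blue) and DM (orange) peaks and dotted lines join the blocks of 1 peak, with 1 pooled value per peak and no error. The long NES peak sits at 7.93 in GM and 10.3 in DM, and the INA 3′UTR peak at 8.71 and 1.88.

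Pairs of exactly 1 GM and 1 DM peak numbered 12 for the filament genes, 6 of them in PLEC. Fold enrichment differed by more than 1.5-fold in 3 of the 12, against 25.0% of all 10239 pairs, with 1 higher in DM (14.2% of all pairs) and 2 lower (10.8%). All 3 lay in SYNM and INA, the 2 genes with pairs whose expression was lowest. The pairs of DES, NES and PLEC stayed between ratios of 0.788 and 1.32. The median log2 ratio was -0.22 over the 12 pairs and 0.07 over all pairs. Of the 21 GM peaks, 5 overlapped no DM peak, where 14.7% of all GM peaks did so, and of the 16 DM peaks, 2 overlapped no GM peak, where 28.7% of all DM peaks did so.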

How the data were processed

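The deposited gene table holds FPKM computed by the authors with StringTie after HISAT2 alignment to ARS-UCD1.2, for the 6 input libraries. The methods name Trimmomatic for trimming, and the submitters' processing notes name cutadapt and fastp. The deposited peak lists hold the authors' exomePeak fold enrichment (a linear ratio of IP over input) and unadjusted p-value per peak, from unique, non-duplicate reads pooled per group, with ChIPseeker annotation, in which 1 label stands for a whole peak. Separate deposited columns give log10 of the p-value and of its false discovery rate. Versions of the aligner, the FPKM tool, the peak caller and the annotation tool are not given in the sources used here.

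Members and gene lists were chosen with earlier results of these data known. Named genes are the 8 members, up to 4 genes per list (called genes with the largest change, then the most abundant) and the 3 nearest profiles of each called member. Expression was tested in R 4.3.3 with limma 3.58.1, with a variance trend, on log2(FPKM + 1) of genes whose mean reached 0.5 FPKM, with Benjamini-Hochberg adjustment over all 12302. Peaks were paired in Python 3.11.15 with pandas 2.3.3 by at least 1 shared base of exon blocks on 1 strand. Both steps were tested on simulated data. Alternatives covered the pseudocount, filter, scaling, variance trend, replicate block, thresholds, libraries left out and peak selection. Peaks have no replicate error. The study lists the reads of each library, but the reads behind a single gene's FPKM or a single peak are unknown. Counts, single-sample peaks and RNA sequences were not analysed here.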

Additional observations from a re-analysis of the deposited data

How the results depend on the processing

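With a fold change over 2 in place of 1.5, 1 filament gene (NES) and 507 genes in all were called, and a change in fold enrichment over 2-fold held for 1 pair of the filament genes (INA) and 1029 of all pairs. Under peaks with fold enrichment of at least 2, peaks with a false discovery rate under 0.001, and pairs sharing 50% or more of each peak, 1 filament pair changed each time, the SYNM 5′UTR, since the INA pair and the last-exon pair of SYNM no longer entered. All genes called numbered 2014 with a pseudocount of 0.1 and 1762 with TPM, against 1461. Leaving out 1 library at a time gave 2 filament genes, 1480 to 1521 genes in all and a DES to VIM log2 difference of 0.80 to 0.90. The replicate block gave 1473 genes and the same 2 filament genes, VIM and NES. Same-numbered GM and DM libraries deviated with correlations of -0.0792, -0.123 and -0.208, so the numbers were not taken as a pairing. The ratio of KRT8 to KRT18 was not run because KRT18 is listed at 0 in 1 GM library. The cause of the differences between scalings was not tested.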
